A study of Mus musculus with 4 samples.

Results

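The aminoacyl-tRNA synthetase genes were followed in the livers of fasted mice with a hepatic knockout of Cpt1a, the outer-membrane enzyme through which long-chain fatty acids enter mitochondrial oxidation. Members were taken by gene symbol: 35 symbols of the 54532 genes in the count table, 19 of them for cytosolic and 16 for mitochondrial enzymes, whose symbols end in 2. Each symbol matched 1 gene. The libraries come from 4 livers with a liver-specific Cpt1a knockout, taken after a 24 h fast, at 13138884 to 14116441 counts per liver. Whether these are 4 separate mice is not stated, and their spread may therefore be technical only. The authors' 3 comparison tables add a second group, called the Cpt2 group here, and a reference group whose column name joins Rab30 and Cpt2. The sources used here give no genotype for that reference beyond the design's mention of littermate controls, and no age for any group. Column names of both knockouts carry AlbCre, a Cre recombinase driven by the albumin promoter, which acts mainly in hepatocytes and need not delete the gene in other liver cells.

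Cpt1a itself was at 24.4, 28.6, 31.1 and 36.9 FPKM (fragments scaled to gene length and library size) in the 4 livers. The authors' deposited table put it 6.91-fold below the reference group. Cpt2 was not lower in the group labelled Cpt2, with a log2 fold change of −0.07 and an adjusted p of 0.837 in the authors' deposited table. A count over a whole gene need not show a partial deletion, and directions drawn from that group rest on its label. The tissue label was borne out by hepatocyte markers, which summed to 23239 to 32480 FPKM per liver over 6 genes. Markers of bile duct and exocrine pancreas were low, with every one of 4 and 3 genes below 1 FPKM on average, although the pancreas genes summed to 0 in the lowest liver and to 4.22 in the highest. The design states that the Cpt2 samples were deposited earlier, and neither the Cpt2 group nor the reference has a sample in this series. Genotype and deposit therefore cannot be told apart where the Cpt1a knockout is compared with either.

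Aminoacyl-tRNA synthetases join each amino acid to its transfer RNA, the step that sets the genetic code. One set of enzymes works in the cytosol, where several are held together with scaffold proteins in a multisynthetase complex, and a separate nuclear-encoded set is imported into mitochondria for the translation of respiratory chain subunits. Many cytosolic synthetase genes are known targets of ATF4, the transcription factor of the integrated stress response to amino acid shortage and to mitochondrial or endoplasmic reticulum stress. Gars and Kars, the glycine and lysine enzymes, serve both compartments from 1 gene.

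Cytosolic synthetases were the more abundant transcripts in the Cpt1a knockout livers. Summed over the 19 cytosolic members, the level was 173, 153, 160 and 147 FPKM in livers 1 to 4, a mean of 158 ± 11.4 (SD, n = 4). Summed over the 16 mitochondrial members, it was 54.5, 55.1, 52.2 and 48.8 FPKM, a mean of 52.7 ± 2.86. The cytosolic sum was thus 3.01 ± 0.174 times the mitochondrial sum within a liver, and the lowest of the 4 ratios was 2.77. Together the 35 genes took 0.115 to 0.126% of all counts.

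**Figure D1:**
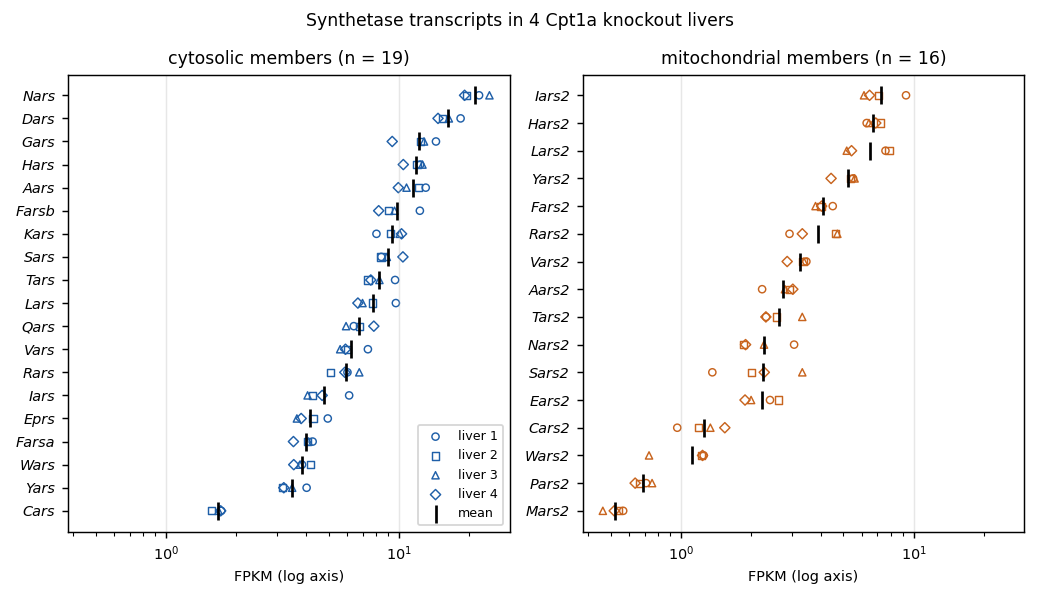
FPKM of each synthetase in each of the 4 Cpt1a knockout livers (log axis; open symbols are livers, black ticks their mean), cytosolic members on the left and mitochondrial members on the right. Nars leads the cytosolic members at a mean of 21.4 FPKM and Iars2 the mitochondrial members at 7.24, and most neighbours in the order overlap.

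Nars, the asparagine enzyme, was the most abundant member at 22.1, 19.5, 24.5 and 19.2 FPKM. Dars, the aspartate enzyme, followed at 18.5, 15.4, 16.4 and 14.8 FPKM. Gars followed at 14.5, 12.4, 12.8 and 9.38 FPKM. The ranges of Nars, Dars and Gars did not overlap from 1 to the next. At the other end stood Cars, the cysteine enzyme, at 1.73, 1.57, 1.68 and 1.72 FPKM, below every value of its neighbour Yars, the tyrosine enzyme (3.18 to 4.02). Wars, for tryptophan, lay just above at 3.54 to 4.19 FPKM, overlapping with Yars. Among the 18 neighbouring pairs of the cytosolic order, 15 had overlapping ranges, so most ranks in the middle are not resolved by 4 livers. FPKM also divides by the deposited gene length, from 1987 bases for Hars to 18102 for Eprs among the members, so ranks rest on it.

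Iars2, the mitochondrial isoleucine enzyme, led its compartment at 9.28, 7.09, 6.13 and 6.47 FPKM. Hars2, for histidine, was at 6.29, 7.24, 6.44 and 6.88 FPKM. Lars2, for leucine, was at 7.58, 7.85, 5.17 and 5.42 FPKM. These 3 overlapped, and Lars2 split into livers 1 and 2 above livers 3 and 4. The least abundant were Mars2, for methionine, at 0.463 to 0.566 FPKM, Pars2, for proline, at 0.637 to 0.754, and Wars2, for tryptophan, at 0.731 to 1.25. Pars2 rested on 31 to 37 counts per liver and Mars2 on 83 to 96, the thinnest evidence in the set. The order of Mars2 and Pars2 in FPKM rests on their deposited gene lengths, 11294 and 3094 bases. Of 15 neighbouring pairs, 13 overlapped.

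The other cytosolic members lay between these ends. Farsb, a subunit of the phenylalanine enzyme, was at 12.3, 9.03, 9.60 and 8.21 FPKM, and its partner Farsa at 4.27, 4.07, 4.10 and 3.53. Lars, for leucine, was at 9.73, 7.72, 6.99 and 6.68 FPKM. Vars, for valine, was at 7.38, 6.02, 5.61 and 5.91 FPKM. In each of these genes liver 1 was the highest. Kars was at 8.03, 9.20, 10.1 and 10.3 FPKM. Sars, for serine, was at 8.42, 8.40, 8.90 and 10.4 FPKM. Qars, for glutamine, was at 6.42, 6.78, 5.95 and 7.82 FPKM. In these genes liver 4 was the highest instead, so no liver was high or low in every member. Yars was at 4.02, 3.18, 3.49 and 3.21 FPKM. Wars was at 3.85, 4.19, 3.77 and 3.54 FPKM. Rars, for arginine, was at 6.03, 5.11, 6.77 and 5.87 FPKM.

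Among the mitochondrial members called in a comparison below, Ears2, for glutamate, was at 2.42, 2.63, 2.01 and 1.89 FPKM. Vars2, for valine, was at 3.47, 3.35, 3.38 and 2.87 FPKM. Mars2 was at 0.566, 0.542, 0.463 and 0.518 FPKM, and Pars2 at 0.711, 0.666, 0.754 and 0.637. In each of these 4 genes the highest liver was within 1.39 times the lowest. The 9 mitochondrial members called in no comparison had means from 1.11 FPKM for Wars2 to 6.71 for Hars2.

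The spread between livers was modest. The median SD on the log2(FPKM + 1) scale was 0.15 over the members, against 0.18 over 9136 protein-coding genes of the same range of levels. Cars varied least, with an SD of 0.04, and Sars2, the mitochondrial serine enzyme, most, with 0.36. Sars2 ran from 1.37 FPKM in liver 1 to 3.33 in liver 3.

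For 12 amino acids the set holds 1 cytosolic and 1 mitochondrial gene. By FPKM, the cytosolic form was the more abundant in every liver for 9 of these 12 pairs. The ratio was highest for asparagine, where Nars exceeded Nars2 by 7.22, 10.5, 10.8 and 10.1 times. In FPKM, isoleucine and tyrosine were reversed in all 4 livers. Iars was at 0.663 ± 0.050 times Iars2 and Yars at 0.669 ± 0.070 times Yars2 (SD, n = 4). For tyrosine this rests on the deposited gene length, 5943 bases for Yars and 3149 for Yars2. In raw counts Yars was above Yars2 in every liver, at 359, 284, 329 and 300 against 260, 253, 279 and 219. The histidine pair, counted among the 9, likewise rests on gene length, 1987 bases for Hars and 4279 for Hars2. In raw counts Hars was below Hars2 in every liver, at 369, 358, 399 and 327 against 404, 466, 437 and 463. Leucine was undecided, with Lars at 1.28, 0.984, 1.35 and 1.23 times Lars2.

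The authors' tables compare the Cpt1a knockout, the Cpt2 group and the reference in pairs, and a gene is called here where their adjusted p is below 0.05. The clearest difference lay between both knockouts: all 19 cytosolic synthetases were lower in the Cpt1a knockout than in the Cpt2 group in the authors' deposited table, and 6 of 16 mitochondrial ones were. No member was called higher. Of all 17755 genes tested in the authors' deposited table, 14.6% were called lower and 14.2% higher. The median log2 fold change was −0.84 for the cytosolic members and −0.30 for the mitochondrial members in the authors' deposited table, against 0.05 over all genes tested.

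**Figure D2:**
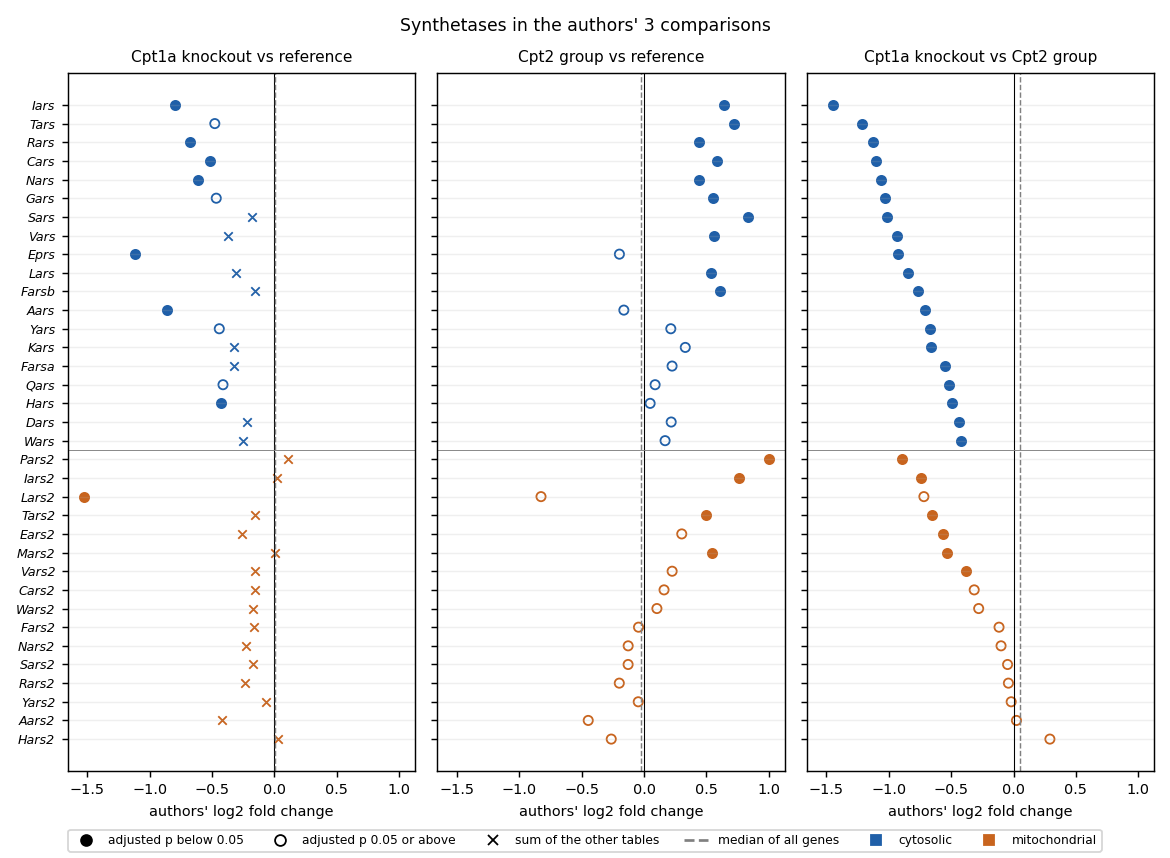
Authors' log2 fold change of each member in the 3 comparisons (blue, cytosolic; orange, mitochondrial; filled, adjusted p below 0.05; open, not; cross, gene left out of the partial table and given as the sum of the other 2 tables; dashed line, median of all genes). In the right panel all 19 cytosolic members are filled and lie left of 0, from −1.44 to −0.42, while 6 of 16 mitochondrial members are filled.

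Iars, the isoleucine enzyme, differed most. It was at 6.13, 4.28, 4.06 and 4.69 FPKM in the Cpt1a knockout livers, liver 1 being the highest. The authors' deposited table puts it 2.72-fold below the Cpt2 group, with a log2 fold change of −1.44 and an adjusted p of 3.96e-15. Tars, the threonine enzyme, was at 9.65, 7.39, 8.27 and 7.59 FPKM in the livers, and its log2 fold change was −1.21 (adjusted p = 3.72e-14) in the authors' deposited table. These livers lay close together, within a factor of 1.31.

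In the authors' deposited table Rars and Cars came next, 2.18-fold and 2.15-fold below the Cpt2 group. In the authors' deposited table Nars, Gars and Sars were lower by 2.09-fold, 2.04-fold and 2.02-fold. The weakest of the 19 were Dars and Wars, with log2 fold changes of −0.44 and −0.42 and adjusted p of 0.00389 and 0.0450 in the authors' deposited table. Between them and the strongest lay Vars, Eprs, Lars, Farsb, Aars, Yars, Kars, Farsa, Qars and Hars, from −0.93 to −0.49 in the authors' deposited table. Both subunits of the phenylalanine enzyme are in this group, with the catalytic subunit Farsa at −0.55 and its partner Farsb at −0.77 in the authors' deposited table.

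The 6 mitochondrial genes called lower than in the Cpt2 group were Pars2, Iars2, Tars2, Ears2, Mars2 and Vars2, for proline, isoleucine, threonine, glutamate, methionine and valine. Pars2, on few counts, had the lowest of them, −0.90 (adjusted p = 0.00346) in the authors' deposited table. Iars2 had −0.74 (2.95e-05) and Tars2 −0.65 (4.24e-04) in the authors' deposited table. Tars2 was at 2.33, 2.58, 3.33 and 2.32 FPKM in the Cpt1a knockout livers, liver 3 being the highest. Iars2 shares 22.9% of its exon bases with Rab3gap2 on the opposite strand in GENCODE M21. Rab3gap2 was lower as well, at −0.96 in the authors' deposited table, and with strand use not given in the sources used here reads of both genes cannot be told apart.

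The 10 mitochondrial genes that were not called ranged from −0.72 for Lars2 to 0.29 for Hars2 in the authors' deposited table. Aars2, Yars2, Rars2 and Sars2 had values between −0.05 and 0.02 in the authors' deposited table. For each of the 12 amino acids with both forms, the cytosolic gene had the lower log2 fold change in the authors' deposited table, by a median of 0.72. The gap was widest for arginine, with Rars at −1.13 and Rars2 at −0.04 in the authors' deposited table. Genes are not replicates, so the gap between the compartments is a description and was not tested.

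**Figure D3:**
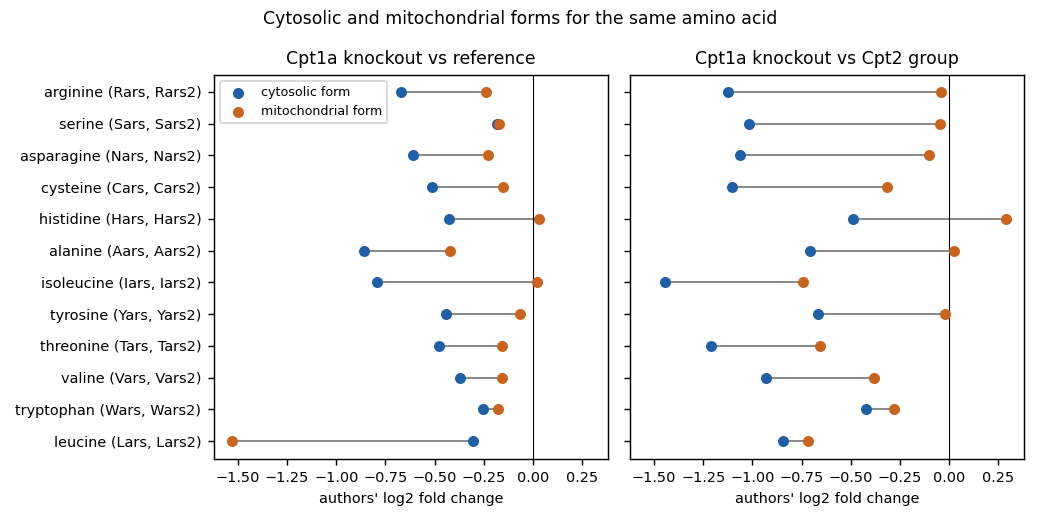
Authors' log2 fold change of the cytosolic (blue) and mitochondrial (orange) gene for the same amino acid, joined by a line, for the Cpt1a knockout over the reference (left) and over the Cpt2 group (right). The cytosolic form lies further left in 12 of 12 pairs on the right and 11 of 12 on the left, the exception being leucine. On the left, genes missing from the partial table are given as the sum of the other 2 tables. The serine pair differs by −0.007 there, within the 0.014 by which such sums differed from listed values, and is not resolved.

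Against the reference group, fewer synthetases passed, and all that did were lower in the Cpt1a knockout: 7 of 19 cytosolic and 1 of 16 mitochondrial in the authors' deposited table. Of about 16862 genes tested there, 7.6% were called lower and 6.81% higher, and 13.1% were lower at an unadjusted p below 0.05. This table lists only genes with an unadjusted p up to 0.05, which left 11 cytosolic members and Lars2. For the other members the sum of both remaining tables' log2 fold changes was used, which differed by at most 0.014 from the listed value in the 12 members that had both. With these sums all 19 cytosolic members were below 0 (median −0.43), as were 12 of 16 mitochondrial members (median −0.16), against a median of 0.01 over all genes. The 3 comparisons share groups, so their values are set side by side and are not independent.

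Eprs, which charges both glutamate and proline, was 2.16-fold below the reference (adjusted p = 4.69e-07) in the authors' deposited table. In the livers it was at 4.96, 4.29, 3.66 and 3.81 FPKM. Aars, the alanine enzyme, was 1.81-fold below it (adjusted p = 2.24e-05) in the authors' deposited table, and at 13.1, 12.2, 10.8 and 9.97 FPKM. For both genes livers 1 and 2 were above livers 3 and 4. Aars shares 14.3% of its exon bases with Exosc6 on the same strand in GENCODE M21, and Exosc6 is listed at 0 in every liver.

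Iars, Rars, Nars, Cars and Hars followed, with log2 fold changes against the reference of −0.79, −0.67, −0.61, −0.51 and −0.43 in the authors' deposited table. The last of them, Hars, for histidine, was near the threshold with an adjusted p of 0.0457 in the authors' deposited table, and was at 12.4, 12.0, 12.7 and 10.5 FPKM in the livers. Its gene starts back to back with that of Hars2 on chromosome 18, and both share 195 exon bases in GENCODE M21. Yars, Qars, Gars and Tars were listed but not called, with log2 fold changes of −0.44, −0.41, −0.47 and −0.48 and adjusted p of 0.0570 to 0.135 in the authors' deposited table.

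Lars2 (ENSMUSG00000035202, chromosome 9, 123366927 to 123462666, plus strand, GRCm38) was the sole mitochondrial member called against the reference and had the lowest log2 fold change of the 35, −1.53 (adjusted p = 6.84e-06), in the authors' deposited table. For the Cpt2 group against the reference Lars2 had a log2 fold change of −0.83, which was not called (adjusted p = 0.386), in the authors' deposited table. Between both knockouts Lars2 did not pass either (adjusted p = 0.328) in the authors' deposited table.

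In the Cpt2 group the called members were all higher than the reference: 10 of 19 cytosolic and 4 of 16 mitochondrial in the authors' deposited table, where 10.3% of 17475 genes were called higher and 10.7% lower (7.23% higher at an adjusted p below 0.01, and 13.2% of the genes whose mean count reached 100). Sars had the smallest adjusted p, with a log2 fold change of 0.83 (adjusted p = 1.81e-07) in the authors' deposited table. Tars, Iars, Farsb, Cars, Vars, Gars, Lars, Nars and Rars had log2 fold changes from 0.72 down to 0.44 in the authors' deposited table. Eprs and Aars, most reduced of the cytosolic members in the Cpt1a knockout, were at −0.20 and −0.16 here and not called in the authors' deposited table. Among mitochondrial members, Pars2 (1.00), Iars2 (0.76), Mars2 (0.54) and Tars2 (0.50) were called in the authors' deposited table. Rab3gap2, which shares exon bases with Iars2, was called higher as well, at 0.68 in the authors' deposited table, so the limit given above for Iars2 holds here too. Pars2 and Mars2 rest on few counts. In this comparison 3 of 3 red blood cell markers (median −1.42) and 3 of 6 Kupffer cell markers (median −0.67) were lower in the authors' deposited table, and their part in the synthetase values was not tested. The medians were 0.44 for the cytosolic and 0.03 for the mitochondrial members in the authors' deposited table, against −0.03 over all genes tested.

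Read across the tables, 4 cytosolic genes were called in opposite directions, lower than the reference in the Cpt1a knockout and higher than it in the Cpt2 group: Cars, Iars, Nars and Rars. Of 17054 genes with an adjusted p in both complete tables, 50 (0.293%) had this pattern in the authors' deposited tables. Iars stood at −0.79 and 0.64, Rars at −0.67 and 0.44, Nars at −0.61 and 0.44, and Cars at −0.51 and 0.58 in the authors' deposited tables. A further 3 cytosolic genes (Aars, Eprs and Hars) passed against the reference in the Cpt1a knockout but not in the Cpt2 group, and 6 (Farsb, Gars, Lars, Sars, Tars and Vars) in the Cpt2 group but not in the Cpt1a knockout. The remaining 6 (Dars, Farsa, Kars, Qars, Wars and Yars) were lower in the Cpt1a knockout than in the Cpt2 group and were called against the reference in neither. Of those 17054 genes, 3.1% had the pattern of Aars, Eprs and Hars, 7.96% that of the 6 called in the Cpt2 group, and 5.94% that of the last 6, per the authors' deposited tables. Of the mitochondrial genes, 9 of 16 were called in no comparison, beside 59.6% of the 17054 genes in the authors' deposited tables.

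Structure of the enzymes gave no comparable split between both knockouts, in groupings made after the values were seen. The 7 members of the multisynthetase complex (Dars, Eprs, Iars, Kars, Lars, Qars and Rars) had a median of −0.84 between both knockouts, and the 12 cytosolic members outside it −0.85, in the authors' deposited table. Cytosolic class I enzymes (8 genes) had a median of −0.89 and class II enzymes (10 genes) one of −0.74 in the authors' deposited table. These classes differ in the fold of the catalytic domain, and Eprs, which holds both kinds, was left out.

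Because the cytosolic members lay on 1 side, their promoters were read for the element that ATF4 binds with C/EBP partners. RefSeq windows from 250 bases before to 50 after the start (GRCm38.p6) were in the table used for 12 cytosolic and 14 mitochondrial members. Searched on both strands as TTGCATCA or TGATGCAA, the element was found for 4 of the 12 cytosolic genes (Iars, Tars and Yars among them) and 0 of the 14 mitochondrial genes. It is in 0.895% of all 32851 windows of that length. With 1 free base (TTNCATCA or TGATGNAA), which includes the first form, Gars was added, for 5 of 12 and 0 of 14, against 3.97% of all windows. These were 2 of 4 motifs searched, all chosen with the members' values known. The other 2 were CACGTG, found for 4 cytosolic and 1 mitochondrial genes and in 7.15% of all windows, and CCAAT or ATTGG, found for 6 of each and in 37.4% of all windows. A match is a description of letters and not evidence of binding, and members without a match may hold the element elsewhere. The sequences are printed 5′ to 3′ on the gene's strand with the element in capitals, 30 bases where the window touches an annotated exon in GENCODE M21 and 150 bases for Gars. Iars and Yars were added to the promoters shown after the positions were seen, since their match lies after the start.

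Tars, chr15:11399655-11399684, minus strand, element at −15 to −8: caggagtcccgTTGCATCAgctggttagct
Iars, chr13:49682126-49682155, plus strand, element at 8 to 15: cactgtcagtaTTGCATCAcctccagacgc
Yars, chr4:129189895-129189924, plus strand, element at 4 to 11: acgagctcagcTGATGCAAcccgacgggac
Gars, chr6:55037851-55038000, plus strand, element with 1 free base at −30 to −23: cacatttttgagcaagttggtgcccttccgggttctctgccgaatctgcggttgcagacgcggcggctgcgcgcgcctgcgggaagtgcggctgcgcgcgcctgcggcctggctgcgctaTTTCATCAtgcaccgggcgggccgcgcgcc

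Rars, Cars and Nars, which were lower by over 2-fold in the authors' deposited table, had no entry among the promoter sequences. Sars, lower by 2.02-fold in the authors' deposited table, had an entry and no match to either form of the element.

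The amino acid response genes were read beside the synthetases. Of 20 listed genes of this pathway, 14 were lower in the Cpt1a knockout than in the Cpt2 group and 0 higher in the authors' deposited table, at a median of −0.68. Over all genes tested there, 14.6% were called lower and 14.2% higher. Against the reference, 4 were lower in the Cpt1a knockout, beside 7.6% of all genes tested, per the authors' deposited tables. The median of the 20 genes there was −0.16, with sums of the other 2 tables where the partial table left a gene out. The Cpt2 group had 9 higher and 1 lower, beside 10.3% and 10.7% of all genes tested, per the authors' deposited tables. The 4 lower in the Cpt1a knockout were Asns, asparagine synthetase (−1.64), and Cebpb, a C/EBP factor (−0.98), in the authors' deposited table. The others were Chac1, which degrades glutathione (−1.83), and Shmt2, of mitochondrial one-carbon metabolism (−0.46), in the authors' deposited table. Of the 20 genes, 8 were below 1 FPKM on average in the Cpt1a knockout livers, among them Asns (0.80), Chac1 (0.39) and Psat1 (0.25). Low levels limit the fold changes of these genes. Cebpb was also the 1 gene lower in the Cpt2 group (−0.81), and its −0.18 between both knockouts was not called (adjusted p = 0.583) in the authors' deposited tables. Named after their values were seen, Psat1, of serine synthesis, and Slc3a2, the shared chain of amino acid exchangers, had −2.90 and −2.17 between both knockouts in the authors' deposited table. Psat1 did not follow the synthetases against the reference, where the authors' deposited tables give 1.84 for the Cpt1a knockout (adjusted p = 0.0532) and 4.74 for the Cpt2 group. Other genes of this list also had positive values there for the Cpt1a knockout, all as sums of the other 2 tables. Atf4 itself had −0.73 (adjusted p = 0.00173) between both knockouts in the authors' deposited table, and was at 0.43 in the Cpt2 group against the reference, where it was not called (adjusted p = 0.0986).

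**Figure D4:**
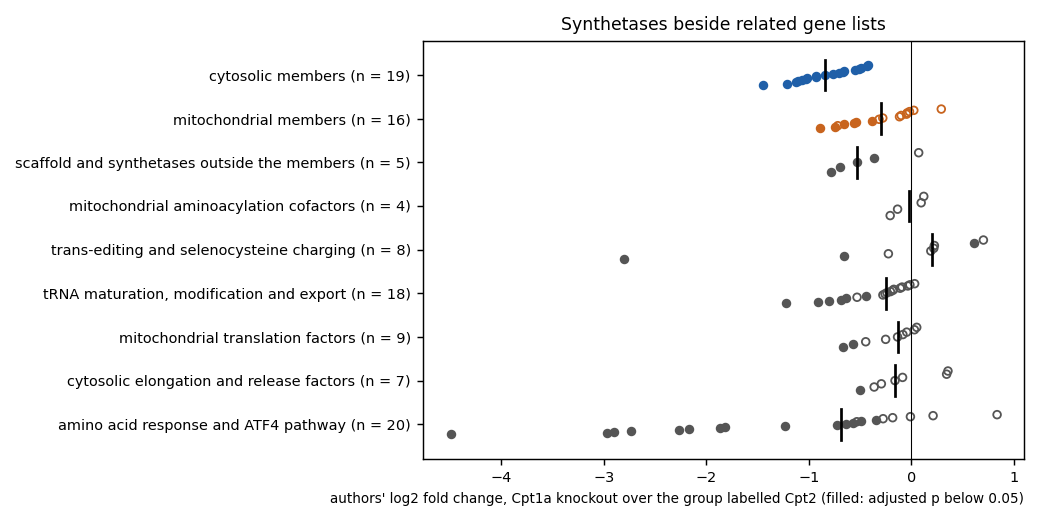
Authors' log2 fold change of the Cpt1a knockout over the Cpt2 group for the members and 7 related gene lists (each point a gene; filled, adjusted p below 0.05; black bar, median). Cytosolic members have a median of −0.84 and the amino acid response list one of −0.68, while the other lists lie between −0.54 and 0.20.

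Partners of the synthetases were more mixed. Mars, the cytosolic methionine enzyme, which is not among the 35, was lower in the Cpt1a knockout than in the Cpt2 group (−0.78) and than in the reference (−0.65) in the authors' deposited tables. The scaffolds Aimp1 (−0.36) and Aimp2 (−0.70) were lower than in the Cpt2 group in the authors' deposited table. The scaffold Eef1e1 had 0.07 between both knockouts and was not called in the authors' deposited table. Cofactors that finish mitochondrial charging (Qrsl1, Gatb and Gatc for glutamine, Mtfmt for formyl-methionine) were called in 0 of 4 in each of the authors' deposited tables. Between both knockouts 14.6% of all genes tested were called lower and 14.2% higher, and 4 genes are too few to be set apart from those shares.

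Genes of tRNA maturation, modification and export were lower in the Cpt1a knockout than in the Cpt2 group in 6 of 18 and higher in none in the authors' deposited table. Rtcb, the tRNA ligase, and Nsun2, a tRNA methyltransferase, were lower than the reference, at −0.59 and −0.55 in the authors' deposited table. Trans-editing and selenocysteine genes had 2 lower and 1 higher of 8 between both knockouts in the authors' deposited table. The higher one was Prorsd1, a relative of the proline-editing domain, at 0.61 there and at 0.62 against the reference in the authors' deposited tables. Of 9 mitochondrial translation factors 2 were lower in the Cpt1a knockout than in the reference, Gfm1 and Gfm2, the elongation and recycling factors, at −0.97 and −0.52 in the authors' deposited table. Cytosolic elongation and release factors had 1 lower of 7 between both knockouts and 1 higher of 7 against the reference, Eef1b2, an exchange factor of elongation, at 0.63, in the authors' deposited tables. Over all genes tested, 14.6% were called lower and 14.2% higher between both knockouts, per the authors' deposited table. Against the reference, 7.6% were called lower and 6.81% higher in the Cpt1a knockout. The 1 of 7 lower between both knockouts is near that share.

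Cell type markers moved too, and their part in the synthetase values was not tested. Between both knockouts all 6 Kupffer cell markers and all 3 red blood cell markers were higher in the Cpt1a knockout in the authors' deposited table, with medians of 1.06 and 1.04. Of all genes tested there, 14.2% were called higher and 14.6% lower. Lymphocyte markers were higher in 3 of 6, endothelial markers in 2 of 5, while of 5 stellate markers 1 was higher and 1 lower, per the authors' deposited table. Of the 6 lymphocyte markers, 5 were below 1 FPKM on average in the Cpt1a knockout livers, which limits their values. Of 6 hepatocyte markers, 1 was higher and 0 were lower between both knockouts (median 0.10) in the authors' deposited table. Of these 6, 3 were lower than the reference in the Cpt1a knockout and 4 in the Cpt2 group, beside 7.6% and 10.7% of all genes, per the authors' deposited tables. In the Cpt1a knockout livers, Kupffer cell markers summed to 102 to 128 FPKM and red blood cell markers to 147 to 409 FPKM, with 0 of these genes at 0. In bulk liver, fewer cells of a type and less RNA per cell cannot be told apart.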

How the data were processed

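RNA-seq libraries of 4 Cpt1a knockout livers were used. The submitters' processing notes name HISAT2 and the mouse build GRCm38, also called mm10. Which program counted reads, and whether by strand, is not given in the sources used here. Raw counts per gene and FPKM per gene were deposited, and ratios of FPKM between genes match counts over the deposited gene length. The authors' comparison tables hold log2 fold changes, p-values and adjusted p-values, per the file headers. Their group means were not used, since 2 of the groups have no sample in this series. Where the adjusted p was exactly 1 it was taken as absent. A further 8 per-sample columns match no sample of this series and were not used. With 1 group of samples, no test between groups was fitted, so calls rest on the authors' adjusted p below 0.05. The partial table's number of genes tested was worked out from its p and adjusted p. Calling was tested on simulated data, with a pass mark lowered after a first failure. Members and lists were chosen with earlier results of these data known. All members could be named, and from each related list up to 4 genes with the smallest adjusted p against the reference. Other settings tried were call thresholds, a mean count of at least 100, TPM, a pseudocount of 0.1 in place of 1, and each liver left out. Overlaps come from GENCODE M21 and promoters from RefSeq, read with Python 3.11.15 and pandas 2.3.3. One gene of a related list and 1 promoter window are not reported here.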

Additional observations from a re-analysis of the deposited data

Results flagged for a closer look

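The Cpt1a knockout was tested directly against the Cpt2 group in the authors' deposited table, and 25 of the 35 members differed between these groups. Of all 17755 genes tested there, 14.6% were called lower and 14.2% higher. Genotype and deposit cannot be told apart in this comparison. The log2 fold changes of the 25 members in the authors' deposited table follow. For the cytosolic members they were −1.44 for Iars, −1.21 for Tars, −1.13 for Rars, −1.11 for Cars, −1.06 for Nars, −1.03 for Gars, −1.02 for Sars, −0.93 for Vars, −0.93 for Eprs and −0.84 for Lars. They were −0.77 for Farsb, −0.71 for Aars, −0.67 for Yars, −0.66 for Kars, −0.55 for Farsa, −0.51 for Qars, −0.49 for Hars, −0.44 for Dars and −0.42 for Wars. For the mitochondrial members they were −0.90 for Pars2, −0.74 for Iars2, −0.65 for Tars2, −0.56 for Ears2, −0.54 for Mars2 and −0.38 for Vars2.

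One liver stood apart in 1 of 35 members examined, which is not above the about 1 in 20 sets of values that chance gives. Wars2 was at 0.731 FPKM in liver 3, from 69 counts, while the other livers lay between 1.23 and 1.25.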

How the results depend on the processing

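No paired analysis was possible because the series holds 1 group of samples, and no liver could be left out of the authors' tables. Call thresholds changed 3 counts by over 1.5 times, and the count filter 1. Against the reference, cytosolic members lower in the Cpt1a knockout were 11 at an unadjusted p below 0.05 in place of 7. Those higher in the Cpt2 group were 6 at an adjusted p below 0.01 in place of 10. Mitochondrial ones higher there were 2 in place of 4 at a mean count of at least 100, which leaves out Pars2 and Mars2. The genes called in opposite directions were 2 in place of 4 at an adjusted p below 0.01, a setting added after seeing the data. Between both knockouts the cytosolic count was 18 or 19 under every threshold tried. The cytosolic minus mitochondrial median kept its sign in each comparison, and for the Cpt2 group against the reference it was 0.27 with means in place of 0.41. As TPM the cytosolic and mitochondrial sums were 414 and 138, or 521 and 173 without genes of the mitochondrial genome. Both scale every gene of a liver alike, so the mean ratio stayed at 3.01. Leaving out 1 liver gave 153 to 162 and 51.8 to 53.9 FPKM and a ratio of 2.95 to 3.09. With a pseudocount of 0.1, the SD on the log2 scale moved by over 1.5 times in 5 of 35 members (Cars, Cars2, Mars2, Pars2 and Wars2), to 0.06 for Cars, still the lowest. Low counts limit Pars2 and Mars2.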
